A study of Mus musculus with 6 samples.

Results

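The genes described here are 10 regulators of local translation, the protein synthesis that neurons carry out near their synapses: the fragile X family (Fmr1, Fxr1, Fxr2), the partners of its founding member (Cyfip1, Cyfip2), the cap-binding factor Eif4e, and the Elavl family of RNA-binding proteins (Elavl1 to Elavl4). They were taken by symbol from the count table, which holds 55487 genes. All 10 were found, and all 10 were among the 16119 genes that passed the filter on low counts.

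RNA came from the visual cortex of B6.CBA/Tar mice at postnatal day 28, in a line whose allele UTRmut (Mmp9em1Iimcb) is a mutation of an untranslated region (UTR) of Mmp9, the gene of a secreted matrix protease. The genotypes were WT/WT (0 mutant alleles, called WT below), UTRmut/WT (1 allele, het) and UTRmut/UTRmut (2 alleles, UTRmut), each with 1 female library (replicate 1) and 1 male library (replicate 2). The labels name no Cre, transgene or treatment, and they give neither the changed bases nor whether animals were pooled. Nothing says that the libraries came from separate litters, so the p-values measure the spread between these 6 libraries, part of which may be technical. The main fits between genotypes held no term for sex, so their spread takes in the difference between the female and male library of each genotype.

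Fmr1 encodes FMRP, which binds messenger RNAs in dendrites and holds back their translation, and its loss causes fragile X syndrome. Cyfip1 can bridge FMRP to Eif4e and keep the cap-bound factor from starting translation, and it also serves in the WAVE complex that drives actin branching. Elavl proteins bind AU-rich elements in 3' UTRs and mostly stabilise the bound messenger. FMRP and Elavl1 have both been described as binding Mmp9 messenger RNA, which gives the question: whether transcripts of such regulators differed between genotypes of the Mmp9 UTR line.

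The AU-rich pentamer ATTTA, the core of the elements that Elavl proteins bind, is shown first, as it stands in the 3' UTR of Mmp9, of the 4 Elavl genes and of Fmr1. Sequences are from GENCODE transcripts on GRCm38, read 5' to 3' on the sense strand, with the pentamer of the listed site in capitals. The sites are shown because the members are possible regulators of Mmp9 through its UTR and because messengers of Elavl genes and Fmr1 carry the same letters. Most 3' UTRs of such lengths carry them too.
Mmp9, chr2:164955296-164955320, plus strand: cagcccttttATTTAttatgtatga
Mmp9, chr2:164955331-164955355, plus strand: acatgcatgtATTTAacccacagaa
Mmp9, chr2:164955480-164955504, plus strand: ctcatcaaacATTTAttgagagcat
Mmp9, chr2:164955828-164955850, plus strand: ataaatgaatATTTActtattta
Elavl1, chr8:4285790-4285814, minus strand: catgaaaattATTTAtttatttatt
Elavl2, chr4:91252680-91252704, minus strand: tacaaacagtATTTAttttgtaatt
Elavl3, chr9:22016027-22016051, minus strand: gtgtttaactATTTAttctccttgt
Elavl4, chr4:110204987-110205011, minus strand: tgaaacacttATTTAtttaattgca
Fmr1, chrX:68717206-68717230, plus strand: atttctagttATTTAttctgggaat

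Only the sense strand was searched, as the motifs act in RNA, and overlapping matches each counted. The sites in capitals are 4 of the 5 in Mmp9 and 1 from each of the other genes, picked by hand as examples after all sites were seen. The remaining Mmp9 site ends the last Mmp9 line in lower case. The Elavl1 and Elavl4 lines also hold further pentamers in lower case. The 3' UTR of the main Mmp9 transcript, 944 bases after the stop codon, held 5 ATTTA pentamers, or 5.30 per kb, against a median of 1.33 per kb over 19356 protein-coding genes. At least 1 pentamer stood in the opening 944 bases of 71.4% of the 9673 3' UTRs that are that long or longer, and 7.86% of those windows held as many as 5. The longer motif TTATTTATT, which contains the pentamer, occurred 1 time in Mmp9, in the site shown at the top, and in 5.19% of the windows.

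Among the members, Elavl1 and Elavl2 held the most pentamers. Elavl1 had 17 in 4218 bases, with 8 matches to TTATTTATT, some of which overlap in tandem repeats such as the one shown, and windows with as many pentamers made up 6.31% of those of that length. Elavl2 had 15 in 2477 bases (6.06 per kb, the highest density of the 10 members), which 1.45% of windows of its length reached. Elavl3 and Elavl4 had 8 and 9, which 37.3% and 16.6% of windows of their lengths reached. Fmr1 had 4 (reached by 54.8% of windows), Fxr2 2 (28%), Cyfip1 7 (27.4%), Cyfip2 5 (46.2%) and Eif4e 9 (44.5%). The 255-base 3' UTR of the main Fxr1 transcript had 0. At least 1 pentamer stood in 92.9% of windows of the length of Fmr1, and in 94.1% to 98.8% for the Elavl genes. A match of letters is a description of the transcript and does not show that a protein binds there.

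Total counts were 9500090 to 11966579 per library, and the 10 members together took 0.182% to 0.196% of them. Counts of a member ran from 776 (Fxr1, het female) to 11947 (Cyfip2, WT male), and at the lowest of these the counting error alone is 3.59%. The tissue was checked against its markers: all 11 neuron markers and all 12 markers of cortical layers were detected, with Rbfox3 at 121 to 148, Snap25 at 1552 to 1751 and Gad1 at 293 to 348 CPM (counts per 1000000 counts of the library, with TMM correction for composition). Mmp9, the mutated gene, was scarce: it had 4 and 9 counts in the WT female and male, 9 and 9 in het, and 8 and 16 in UTRmut (0.386 to 1.39 CPM), which does not separate the genotypes and so does not check the labels. In bulk tissue, fewer cells of a type and less RNA per cell cannot be told apart.

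Cyfip2 was by far the most abundant member. Levels are compared between genes per kb of merged exons, since a longer transcript yields more reads. On that scale, Cyfip2 had 137 ± 6.04 CPM per kb (SD, n = 6 libraries) and Cyfip1 7.89 ± 0.230, the lowest of the 10. Between them lay Fxr2 (24.3 ± 0.723), Elavl4 (22.3 ± 0.614), Elavl3 (19.4 ± 0.634) and Eif4e (14.8 ± 0.858), then Elavl2 (12.5 ± 0.936), Fxr1 (11.5 to 12.4, SD 0.410), Elavl1 (11.3 ± 0.637) and Fmr1 (11.2 ± 1.27). The ranges over the 6 libraries of Fxr2 and Elavl4 overlapped, as did those of each neighbouring pair from Eif4e to Fmr1. Cyfip2, Elavl3 and Cyfip1 overlapped no neighbour in the order.

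**Figure D1:**
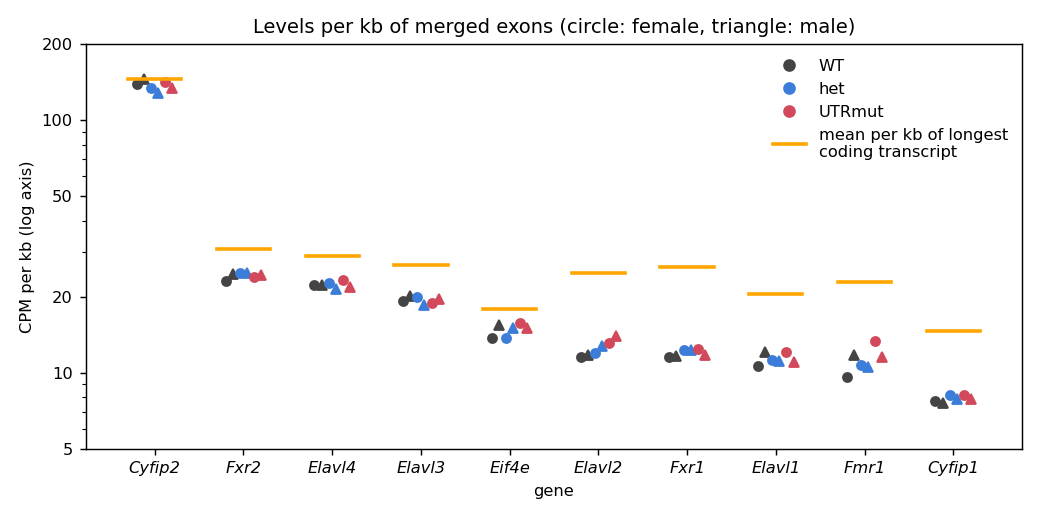
Level of each member in CPM per kb of merged exons (vertical log axis) in each of the 6 libraries, coloured by genotype, with circles for females and triangles for males; the orange bar is the mean when the longest coding transcript gives the length. Cyfip2 (128 to 145) stood above every other member, and Cyfip1 (7.56 to 8.15) was lowest on either length.

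The order in the middle depended on the length used; merged exons are the union over all annotated transcripts of a gene. Per kb of the longest coding transcript, Cyfip2 (146) stayed highest and Cyfip1 (14.6) lowest, but Fxr1 moved to 26.1, Elavl2 to 24.8 and Fmr1 to 22.9, above Eif4e at 17.8. Fxr2, Elavl4 and Elavl3, at 31.0, 28.9 and 26.6, kept their places after Cyfip2.

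Within a library, the ratio of family members does not depend on how the library was scaled. Cyfip2 exceeded Cyfip1 by 4.12 ± 0.09 on the log2 scale (SD, n = 6), or 17.4-fold, with 4.17 and 4.26 in the WT female and male, 4.04 and 4.02 in het, and 4.12 and 4.09 in UTRmut. Both WT libraries were above the other 4, and both het libraries were lowest. How often other pairs of genes show such an order was not counted, and the ratio was not tested. These ratios are per kb of merged exons; per kb of the longest coding transcript, Cyfip2 exceeded Cyfip1 by 3.32 and Fxr2 exceeded Fmr1 by 0.45. The ratio of Fxr2 to Fmr1 was 1.12 ± 0.16 and ran from 0.85 in the UTRmut female to 1.26 in the WT female. Fxr1 and Fmr1 were at like levels (0.10 ± 0.15). The neuronal Elavl3 and Elavl4 exceeded the widely expressed Elavl1 by 0.77 ± 0.08 and 0.98 ± 0.07, and Elavl2 did by 0.14 ± 0.13.

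No member passed the test in UTRmut against WT. Of all genes tested 0.00620% were called in that comparison (edgeR's quasi-likelihood test, adjusted p under 0.05 by Benjamini-Hochberg), 1 gene, or 4 with sex as a block, so a count of 0 of 10 is near the background. At an unadjusted p under 0.05 there was 1 member, Elavl2, against 2.71% of all genes (437 genes), and DESeq2 called 0 members, with 0 at an unadjusted p under 0.05. Log2 folds ran from -0.04 (Cyfip2) to 0.22 (Elavl2), with a median of 0.05 against -0.01 over all genes tested. Of the 10 folds 8 were positive, against 47.9% of all genes. The number was 5 with scaling to library size alone (median -0.02), 5 without the WT female library (median 0.001), 10 without the WT male (median 0.08) and 6 without the UTRmut female. With library size alone the median over all genes tested was -0.07, so that of the members lay above it, as in the main fit. Without the WT female the median over all genes tested was 0.001, level with that of the members. All 10 members had a mean of at least 50 CPM. Of the 4365 such genes, 30.2% were higher in UTRmut than in WT in both sexes and 12.9% were lower in both. Genes of that abundance thus leaned the same way as the members, and their share of positive folds was not counted.

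**Figure D2:**
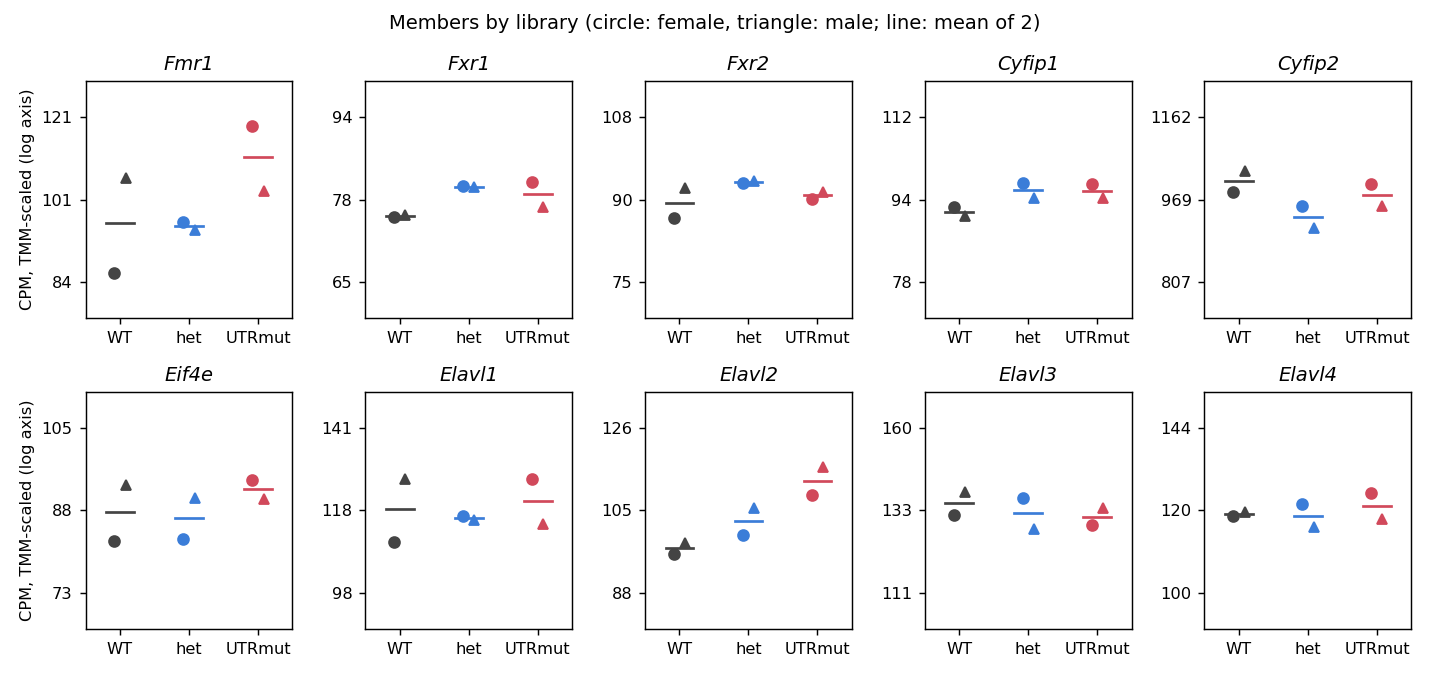
CPM of each member in each library (vertical log axis, the same fold span in every panel), with circles for females, triangles for males and a line at the mean of the 2 libraries of a genotype. Elavl2 runs from 95.7 in the WT female to 116 in the UTRmut male with no overlap between genotypes. The share of all genes with every genotype apart was not counted. The WT libraries of Fmr1 (85.9 and 106) lie on both sides of the het libraries, and the UTRmut male (103) lies between them.

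The fragile X family is taken first. Fmr1 (ENSMUSG00000000838, chrX:68678541-68717963, plus strand) had 85.9 and 106 CPM in the WT female and male, 96.3 and 94.5 with 1 mutant allele and 119 and 103 with 2. The UTRmut male lay below the WT male, so the groups overlap, and the highest and lowest libraries were both female. Its UTRmut to WT difference, 0.21 on the log2 scale (SE 0.11; 95% interval from -0.03 to 0.45), missed the threshold after Benjamini-Hochberg adjustment (edgeR, adjusted p = 0.9988), and for het it was -0.01 (SE 0.11). The UTRmut value was 0.07 without the WT female, 0.38 without the WT male, 0.10 without the UTRmut female and 0.32 without the UTRmut male, none of which passed. Fmr1 had the widest spread of the members over the 6 libraries, with an SD of 0.16 in log2 CPM, against a median SD of 0.09 over the 4365 genes with a mean of at least 50 CPM.

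In the genes below too, the female value precedes that of the male. Fxr1 (ENSMUSG00000027680, chr3:34019943-34070322, plus strand), an FMRP homologue needed in muscle and also present in neurons, had 75.5 and 75.9 CPM in WT, 80.8 and 80.6 with 1 mutant allele and 81.5 and 77.2 with 2. Both WT libraries lay below all 4 libraries with a mutant allele, a pattern whose share of all genes was not counted. The log2 folds were 0.07 (SE 0.09) for UTRmut and 0.09 (SE 0.09) for het against WT. Fxr2 (ENSMUSG00000018765, chr11:69632990-69653297, plus strand), the other homologue, had 86.5 and 92.4 CPM in WT, 93.6 and 93.9 with 1 mutant allele and 90.3 and 91.6 with 2. Its UTRmut libraries lay between those of WT, and its log2 folds were 0.02 (SE 0.09; -0.04 with scaling to library size alone) and 0.07 (SE 0.09).

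The Cyfip pair follows. Cyfip1 (ENSMUSG00000030447, chr7:55841745-55932602, plus strand), which tethers FMRP to the cap-binding factor, had 92.3 and 90.3 CPM in WT, 97.3 and 94.0 with 1 mutant allele and 97.1 and 94.0 with 2. The WT libraries lay below the others, as in Fxr1, again without a count of the share of all genes. The log2 folds were 0.07 (SE 0.09) for UTRmut and 0.07 (SE 0.09) for het. Cyfip2 (ENSMUSG00000020340, chr11:46193850-46312859, minus strand), its paralog in the WAVE complex, had 985 and 1032 CPM in WT, 955 and 909 with 1 mutant allele and 1002 and 955 with 2. Both het libraries lay below both WT libraries, and UTRmut overlapped WT. Its log2 folds were -0.11 (SE 0.08) for het, with a 95% interval from -0.28 to 0.05, and -0.04 (SE 0.08) for UTRmut.

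Eif4e (ENSMUSG00000028156, chr3:138526179-138559696, plus strand), which binds the cap of messenger RNA at the start of translation, had 82.2 and 93.0 CPM in WT, 82.5 and 90.3 with 1 mutant allele and 94.0 and 90.2 with 2. The low values were those of the WT and het females, and the genotypes overlapped. The log2 folds were 0.07 (SE 0.10) for UTRmut, -0.01 without the WT female, and -0.02 (SE 0.10) for het.

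Elavl1 (ENSMUSG00000040028, chr8:4285382-4325413, minus strand), also known as HuR and expressed in most cell types, had 109.7 and 126 CPM in WT, 116 and 115 with 1 mutant allele and 126 and 114 with 2. The WT female was the lowest library and the WT male the highest, so every other value fell between those of WT. Its log2 folds were 0.02 (SE 0.10) for UTRmut, which changed sign with scaling to library size alone (-0.04) and without the WT female (-0.07), and -0.03 (SE 0.10) for het.

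Elavl2 (ENSMUSG00000008489, chr4:91250763-91400785, minus strand), also known as HuB and enriched in neurons, was the member whose libraries came in the order of mutant alleles. It had 95.7 and 98.0 CPM in WT, 99.7 and 106 with 1 mutant allele and 109 and 116 with 2. No genotype overlapped another, a pattern whose share of all genes was not counted, and the male was above the female in each. UTRmut exceeded WT by a log2 fold of 0.22 (SE 0.09; 95% interval from 0.02 to 0.41), and het did by 0.09 (SE 0.09). Per mutant allele it was 0.11 (SE 0.04), with an unadjusted p of 0.0200. After adjustment over all genes tested it passed in neither (edgeR, Benjamini-Hochberg adjusted p = 0.9988 for UTRmut and 0.9975 per allele, and 0.3223 to 1 over all alternatives to these fits). Its fold for UTRmut against WT was positive under all 13 alternatives, from 0.15 to 0.27.

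Elavl3 and Elavl4, the other neuronal members, did not share that order. Elavl3 (ENSMUSG00000003410, chr9:22015005-22052023, minus strand), also known as HuC, had 132 and 139 CPM in WT, 137 and 128 with 1 mutant allele and 129 and 134 with 2. Elavl4 (ENSMUSG00000028546, chr4:110203722-110351909, minus strand), also known as HuD and described as a stabiliser of Gap43 messenger RNA, had 119 and 120.0 CPM in WT, 122 and 116 with 1 mutant allele and 125 and 118 with 2. In both genes the 3 genotypes overlapped. The log2 folds for UTRmut against WT were -0.04 (SE 0.09) for Elavl3 and 0.02 (SE 0.09) for Elavl4, the latter -0.04 with scaling to library size alone. For het they were -0.035 (SE 0.09) and -0.01 (SE 0.09).

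**Figure D3:**
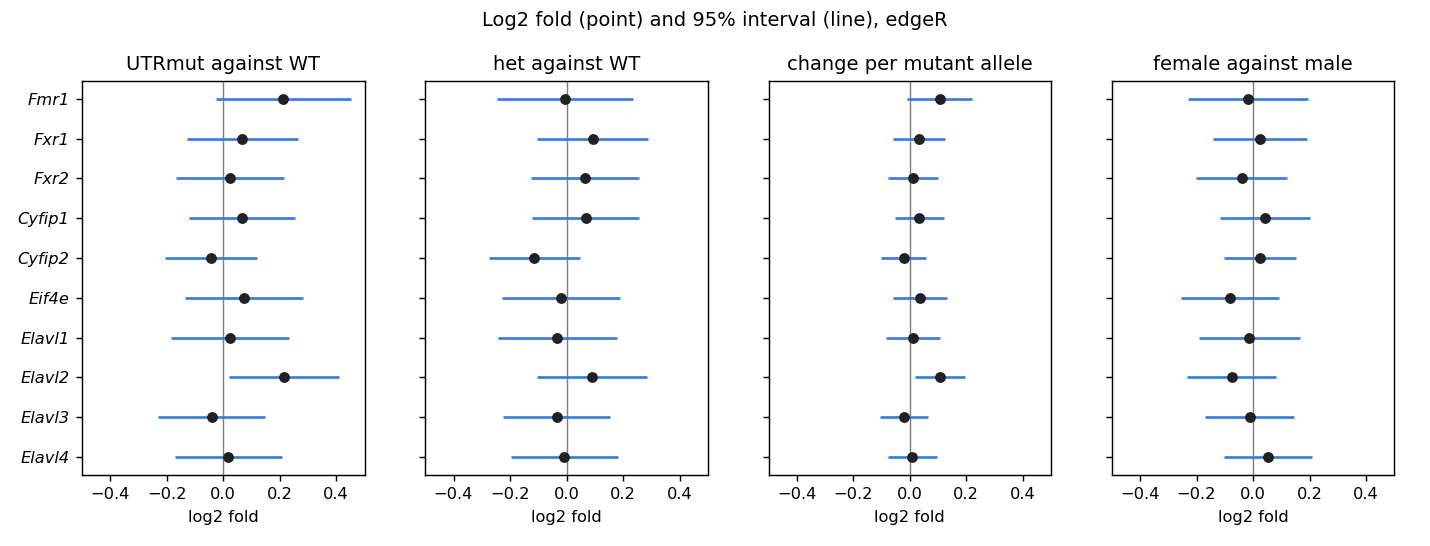
Log2 fold of each member (point, horizontal axis) with its 95% interval (line) from edgeR in 4 comparisons, one per panel. Intervals of all members include 0 except that of Elavl2 in UTRmut against WT (0.02 to 0.41) and per mutant allele (0.02 to 0.20), neither of which passed after adjustment.

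Markers of neurons were set beside Elavl2, since neurons are its main source in cortex. Summed over 11 neuron markers, the level was 5131 and 5701 CPM in WT, 5195 and 5284 with 1 mutant allele and 5615 and 5760.3 with 2. Of the 11 markers 9 had a positive log2 fold in UTRmut against WT (median 0.08) and 2 in het against WT (median -0.03), and 0 passed. Gad1, an enzyme that makes the transmitter GABA, had means of 299, 320.3 and 347 CPM with 0, 1 and 2 mutant alleles, the order of Elavl2. Its log2 fold in UTRmut against WT was 0.22 (SE 0.08; unadjusted p of 0.0192, the only one of the 11 under 0.05; edgeR, Benjamini-Hochberg adjusted p = 0.9988). Gad1 was singled out after its values were seen. Gad2, of the same list, had means of 146, 146 and 159 CPM. Genotype means came in rising order in 17.2% of all genes tested. Other cell types were not alike. Of 8 astrocyte markers 7 were positive in UTRmut against WT (median 0.10) and 7 in het against WT (median 0.065). For 8 microglia markers these numbers were 5 and 6, and for 8 oligodendrocyte lineage markers 1 and 3. For 10 vascular and meningeal markers they were 3 and 7. The part of neuron content, or of other cell types, in the Elavl2 values was not tested.

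In het against WT 0 members passed, against 0.0124% of all genes (edgeR), with 0 members and 2.37% of all genes (382 genes) at an unadjusted p under 0.05. DESeq2 called 0 members there, with 0 at an unadjusted p under 0.05. Log2 folds ran from -0.11 (Cyfip2) to 0.09 (Fxr1), and 4 of 10 were positive, with a median of -0.01 against -0.004 over all genes tested. The number was 8 without the WT male (median 0.08), 7 without the het male (median 0.02) and 5 without the het female (median 0.01), so the sign of the median turned with 1 library. The 95% intervals of the 10 folds lay between 0.826 and 1.22. In UTRmut against WT they lay between 0.852 and 1.37.

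In UTRmut against het 0 members passed (0.0124% of all genes, edgeR, which is 2 genes, or 5 with sex as a block), with 0 members and 2.80% of all genes (452 genes) at an unadjusted p under 0.05, and DESeq2 called 0, with 0 at that unadjusted p. Fmr1 and Elavl2 had the highest log2 folds, 0.22 (SE 0.11) and 0.13 (SE 0.09), and the lowest was -0.04. Per mutant allele 0 members passed, as did 0% of all genes (edgeR), with 1 member, Elavl2, and 3.12% of all genes (503 genes) at an unadjusted p under 0.05. DESeq2 called 0 members there, with 1 at that unadjusted p. The change of Fmr1 per allele was 0.11 (SE 0.05), with an unadjusted p of 0.0677.

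Members whose genotypes did not overlap were counted next. In UTRmut against WT, 3 members (Fxr1, Cyfip1, Elavl2) were higher without overlap, against 14.0% of all genes tested, and 0 were lower, against 14.6%. In het against WT, 4 (Fxr1, Fxr2, Cyfip1, Elavl2) were higher, against 13.4% of all genes, and 1 (Cyfip2) was lower, against 13.6%. In UTRmut against het, Fmr1 and Elavl2 were higher (16.4% of all genes) and Fxr2 lower (17.9%). Genotype means came in rising order in 1 member, Elavl2 (17.2% of all genes), and in falling order in 1, Elavl3 (18.6%). These counts carry no test.

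Females and males were compared next. With genotype in the model, 0 members passed in females against males (0.0372% of all genes, edgeR; 0.00620% higher and 0.0310% lower in females), with 0 members and 6.99% of all genes (1127 genes) at an unadjusted p under 0.05, and DESeq2 called 0, with 0 at that unadjusted p. Fmr1 lies on the X chromosome, of which females silence 1 copy in each cell, and its log2 fold in females against males was -0.02 (SE 0.10; 0.01 with scaling to library size alone). Log2 folds of the 10 members ran from -0.08 (Eif4e) to 0.05 (Elavl4), and 0 members had all 3 females above all 3 males (6.45% of all genes) or below them (5.84%).

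Of the members, Fmr1 had the lowest p for a difference between the sexes in the change with the mutant allele, which did not pass. In females it went from 85.9 to 96.3 to 119 CPM with 0, 1 and 2 mutant alleles, and in males from 106 to 94.5 to 103. Female minus male, the change per allele was 0.26 on the log2 scale (SE 0.08), with an unadjusted p of 0.00329 (edgeR, Benjamini-Hochberg adjusted p = 0.1099), where 1.20% of all genes passed (0.893% with the higher change in females, 0.310% with the lower). It passed without a filter on low counts (edgeR, Benjamini-Hochberg adjusted p = 0.04233) and without the het male (0.0362), was 0.12 without the WT male and 0.40 without the UTRmut male, and had an adjusted p of up to 0.9577 over the alternatives. DESeq2 gave an adjusted p of 0.4454. Each sex and genotype is 1 library here.

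The same sign was seen in 8 further members, with 9 of 10 positive against 48.9% of all genes. The number was 7 without the WT female, the WT male or the UTRmut male. For Elavl1 the difference in the change per allele was 0.17 (SE 0.07), with an unadjusted p of 0.0255 (edgeR, Benjamini-Hochberg adjusted p = 0.277). Elavl1 had 109.7, 116 and 126 CPM in females and 126, 115 and 114 in males with 0, 1 and 2 alleles. Elavl2 was the member with a negative value, and it was higher in UTRmut than in WT in both sexes. In all, UTRmut was above WT in the female and below it in the male in 6 members, as in 34.6% of the 4365 genes with at least 50 CPM. It was above WT in both sexes in 3 (30.2% of those genes) and below in both in 1 (12.9%). Of the members 0 passed and 2 had an unadjusted p under 0.05, against 13.6% of all genes (2190 genes) (DESeq2 called 0, with 1 at that unadjusted p).

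**Figure D4:**
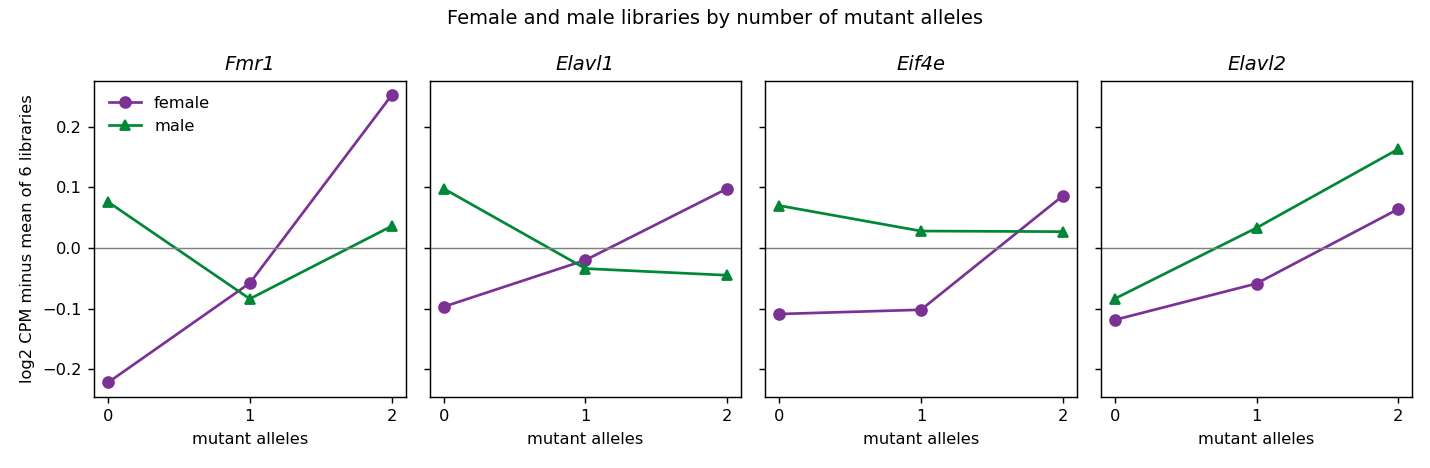
Log2 CPM of 4 members minus their mean over the 6 libraries (vertical axis) against the number of mutant alleles (horizontal axis), with females as circles and males as triangles, 1 library per point. The Fmr1 lines cross, from 85.9 CPM in the WT female to 119 in the UTRmut female, whereas both Elavl2 lines go up with the allele number.

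The WT female library was the lowest of the 6 for Fmr1, Fxr1, Fxr2, Eif4e, Elavl1 and Elavl2, with a median deviation over the 10 members of -0.07 on the log2 scale, against 0.04 in the WT male and 0.06 in the UTRmut female. The same library had a median deviation of -0.08 for neuron, -0.15 for astrocyte, -0.14 for microglia and -0.21 for vascular and meningeal markers, but 0.05 for markers of cortical layers and 0.03 for the oligodendrocyte lineage. Summed levels over the 6 libraries were 5556 to 6904 CPM for astrocyte, 236 to 279 for microglia and 2946 to 3825 for oligodendrocyte lineage markers. They were 344 to 759 CPM for vascular and meningeal markers, with median deviations of 0.30 in the het male and -0.38 in the UTRmut male. Markers of hippocampal, striatal and choroid carry-over summed to 64.8 to 113 CPM, with 0.29 in the WT male, and the lowest sum was in the UTRmut female. Of these, C1ql2, a gene of the dentate gyrus, had a log2 fold of -1.19 (SE 0.32) in UTRmut against WT at an unadjusted p of 0.00239 (edgeR, Benjamini-Hochberg adjusted p = 0.9988). C1ql2 was singled out after its values were seen. Of the 7 tested genes of that list 3 were positive and 4 negative, with Prox1 at 0.07 (SE 0.19). No marker was at 0 in all libraries. The part of tissue composition in the member values was not tested.

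Other genes of the same pathways were counted next, in lists of the members' partners and targets. No gene of the 6 lists passed between genotypes, per mutant allele or between the sexes (edgeR). Of 22 genes of cap-binding and translation initiation, 10 were positive in UTRmut against WT (median -0.004, against -0.01 over all genes tested) and 7 in het (median -0.04), with 0 at an unadjusted p under 0.05 in each. Eif4e3, a cap-binding relative of Eif4e, had 0.25 (SE 0.22) and Mknk2, a kinase of Eif4e, 0.19 (SE 0.12). Eif4g3, a scaffold of the initiation complex, had -0.23 (SE 0.18) and the kinase Mknk1 -0.21 (SE 0.15), all for UTRmut against WT.

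Of 27 FMRP granule partners and RNA transport genes 17 were positive in UTRmut against WT (median 0.05) and 10 in het (median -0.01). Zcchc3 had 0.16 (SE 0.25) and Syncrip, which binds RNA in granules, 0.13 (SE 0.10). Nufip1 had -0.20 (SE 0.16) and Cpeb2, a regulator of polyadenylation in the cytoplasm, -0.11 (SE 0.13). Of 8 genes of the WAVE complex 5 were positive in UTRmut (median 0.03) and 2 in het (median -0.06). Brk1 and Abi2, subunits of that complex, had 0.14 (SE 0.10) and 0.13 (SE 0.08), and Wasf2 and Wasf1, which activate actin branching, -0.24 (SE 0.26) and -0.08 (SE 0.12).

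Of 17 other proteins that bind AU-rich elements 9 were positive in UTRmut (median 0.01) and 8 in het (median -0.01), with 0 and 2 (Zfp36 and Ptbp1) at an unadjusted p under 0.05. Zfp36l2, which promotes decay of bound messengers, had 0.41 (SE 0.26) and Ptbp1, a splicing repressor, 0.23 (SE 0.15; 0.37 in het, SE 0.15). Zfp36, a relative of Zfp36l2, had a mean of only 0.846 CPM and a log2 fold of -0.44 (SE 0.59; -1.60 in het, SE 0.69), and Tia1, of stress granules, -0.16 (SE 0.14).

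Described targets of the members were the last lists. Of 16 FMRP targets 5 were positive in UTRmut against WT (median -0.04) and 2 in het (median -0.08), and 0 passed. In UTRmut against het 15 of the 16 were positive (median 0.07), against 49.7% of all genes tested. So were 7 of 8 WAVE complex genes, 8 of 10 Elavl targets and 20 of 27 granule and transport genes. Of AU-rich binding proteins 11 of 17 were positive, and of initiation genes 12 of 22. Both comparisons with het use the same 2 het libraries, so opposite signs in them are not separate observations. Neuronal markers had signs like those of the FMRP targets in het against WT and in UTRmut against het. In UTRmut against WT neuron markers did not. Of 11 neuron markers 2, and of 12 layer markers 3 (median -0.16), were positive in het against WT. In UTRmut against het 11 of 11 and 9 of 12 were positive. In UTRmut against WT 9 of 11 neuron markers (median 0.08) and 6 of 12 layer markers (median -0.03) were positive. The part of neuron content in the target values was not tested. Arc, a synaptic gene switched on by firing, had 0.51 (SE 0.40) and Camk2a, a kinase of the synapse, 0.11 (SE 0.09). Bsn and Shank1, scaffolds on either side of the synapse, had -0.15 (SE 0.21) and -0.10 (SE 0.50). Of 10 targets of neuronal Elavl proteins 6 were positive in UTRmut (median 0.04) and 4 in het (median -0.05). Cdkn1a had 0.55 (SE 0.54), the growth factor Bdnf 0.41 (SE 0.33), Ank3 -0.09 (SE 0.08) and Mapt, which encodes tau, -0.06 (SE 0.09).

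**Figure D5:**
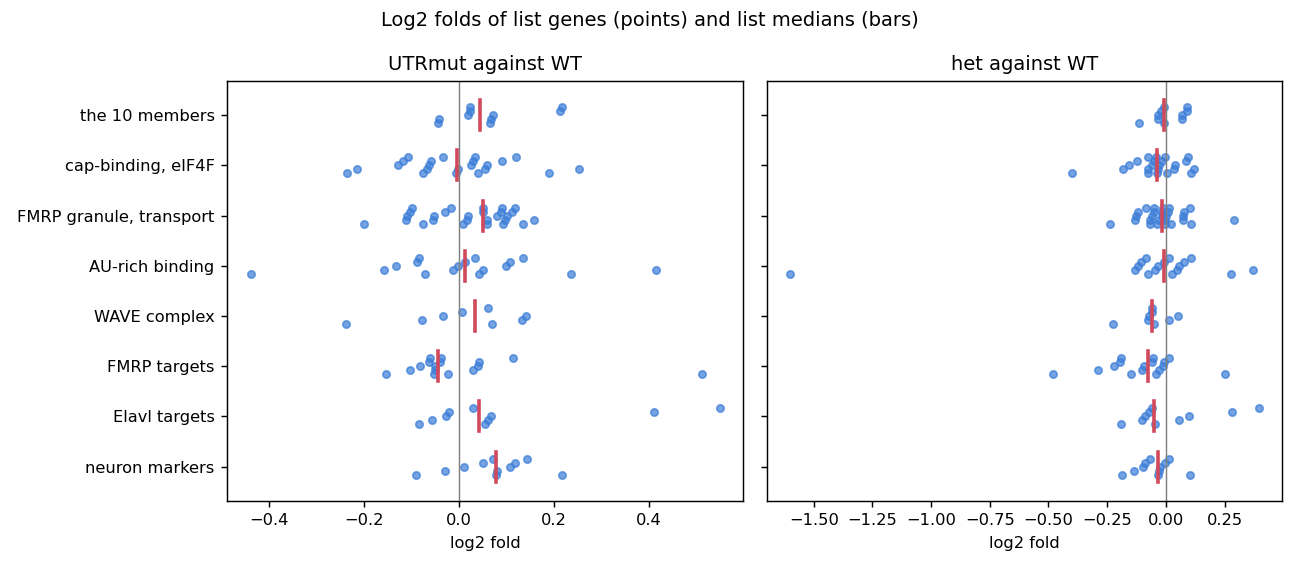
Log2 folds (horizontal axis, a separate scale in each panel) of the genes of 8 lists in UTRmut against WT and het against WT, with a point per gene and a red bar at the list median. The 10 members lie between -0.04 and 0.22 in UTRmut and between -0.11 and 0.09 in het, and list medians lie within 0.08 of 0 in both.

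Reads shared with other genes bear on some counts. Of the 50-base words in the main transcript of Cyfip1, 21.4% also occur in transcripts of other genes, most of them in Nipa2, a gene on the opposite strand whose end overlaps its own and which had 419 to 546 counts. The share was 7.16% for Eif4e, mostly through the processed pseudogene Gm7327 (0 to 1 counts), 5.06% for Fxr1 (mostly Dnajc19, overlapping on the opposite strand), 4.39% for Elavl3 and 2.72% for Elavl1 (Ccl25, on the opposite strand). It was 0% for Fmr1, Fxr2, Cyfip2, Elavl2 and Elavl4. No member's transcript had such a word in common with another of the 10. The strand setting of the counting is not known here, so for Cyfip1, Fxr1 and Elavl1 reads of the opposite strand cannot be told apart.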

How the data were processed

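Total RNA of 6 visual cortex samples was sequenced from libraries made with a stranded total RNA kit, per the labels' protocols. The authors deposited raw read counts per Ensembl gene, 1 column per library, without pooling of libraries. Tools named in the submitters' processing notes, with no role given, were HTSeq 0.6.0, GATK 4.2.3.0, Trimmomatic 0.39 and HISAT2, and the build was GRCm38. Strand setting, annotation release and filters: not given in the sources used here.

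Symbols, positions and lengths came from GENCODE M21 (GRCm38); 346 identifiers, with 0.0332% of counts, had no symbol. Genes were kept with filterByExpr by genotype (minimum count 10, minimum total 15), scaled by TMM and tested in edgeR 4.0.16 (R 4.3.3) with its robust quasi-likelihood F test over all 6 libraries, adjusted by Benjamini-Hochberg over all 16119 genes. SE was taken as |log2 fold|/√F, and intervals are 95%. Fits were checked on simulated data. Replicate 1 is female and replicate 2 male, so the block pairs libraries by sex, not by litter; female minus male deviations of different genotypes correlated at 0.214 to 0.441 over 11529 genes. Alternatives were RLE factors, library size alone, no filter, DESeq2 1.42.0, no robust step, a replicate block (sex), 2 genotypes alone, another gene length and each library left out. The members and lists were chosen with earlier results of these data known. All members were named, and of each pathway list the 2 highest and 2 lowest log2 folds in UTRmut against WT.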

Additional observations from a re-analysis of the deposited data

How the results depend on the processing

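Under the alternatives tried, no member was called between genotypes, per allele or between the sexes; for the difference between sexes in the change per allele 1 member (Fmr1) was called without a filter on low counts, and 0 to 1 when 1 library was left out (1 without the het male). Numbers of genes called moved more. For UTRmut against WT it was 1 as reported, 27 without a filter, 8 with DESeq2, 4 with the replicate block (sex), 3 with the 2 genotypes alone and 2 to 124 when 1 library was left out (124 without the WT male). For het against WT it was 2, then 13 without a filter, 1 with the 2 genotypes alone and 1 to 41 (41 without the WT male). For UTRmut against het it was 2, then 28, 7 with DESeq2, 1 without the robust step, 5 with the replicate block, 10 with the 2 genotypes alone and 0 to 12 (12 without the WT female). Per allele it was 0, then 19 without a filter, 4 with DESeq2 and 0 to 45 (45 without the WT male). For females against males it was 6, then 92, 10 with DESeq2 and 7 to 198 (198 without the WT female, 182 without the WT male). For the sex difference it was 194, then 600, 77 with DESeq2, 121 without the robust step and 16 to 733 (16 without the WT female, 733 without the het male). With library size alone the sign turned for Fxr2 (-0.038), Elavl1 (-0.037) and Elavl4 (-0.044) in UTRmut against WT and for Fmr1 between the sexes (0.011). Medians over all genes tested were then -0.072 in UTRmut against WT and 0.026 between the sexes. When 1 library was left out, UTRmut against WT ran from -0.022 to 0.085 for Fxr2, -0.077 to 0.001 for Cyfip2, -0.013 to 0.177 for Eif4e, -0.070 to 0.137 for Elavl1, -0.078 to 0.010 for Elavl3 and -0.023 to 0.064 for Elavl4. Het against WT ran from -0.148 to 0.155 for Fmr1, -0.106 to 0.078 for Eif4e, -0.127 to 0.074 for Elavl1, -0.082 to 0.013 for Elavl3 and -0.048 to 0.031 for Elavl4. Fmr1 between the sexes ran from -0.140 to 0.123. Per kb of the longest coding transcript, levels were 22.9 (Fmr1), 26.1 (Fxr1), 31.0 (Fxr2), 14.6 (Cyfip1), 146 (Cyfip2), 17.8 (Eif4e), 20.4 (Elavl1), 24.8 (Elavl2), 26.6 (Elavl3) and 28.9 (Elavl4) CPM, and log2 ratios 0.446 (Fxr2 to Fmr1), 3.320 (Cyfip2 to Cyfip1), 0.279 (Elavl2 to Elavl1), 0.381 (Elavl3 to Elavl1) and 0.502 (Elavl4 to Elavl1). The causes of these shifts were not tested, apart from the gene length itself. The replicate block changed no call of a member. Leaving out a library left 1 library in its genotype, which was assumed to vary like the others. With 2 libraries per genotype, member folds had an SE of 0.075 to 0.112 between genotypes.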
